A study of Mus musculus with 2 samples.

Results

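The replicated peak list of mouse CFU-E chromatin merged into 42936 regions, and 16475 of them, or 38.4%, missed the irreproducible discovery rate (IDR) threshold. They were selected on the authors' peak statistics, as the merged regions that shared no base with a record of the IDR-thresholded list or of the conservative IDR-thresholded list of both libraries. The other 26461 regions overlapped at least 1 such record and are called stronger regions here. The IDR estimates, from the ranks of a peak in a pair of peak lists, how likely the peak is to be irreproducible, and the values in the ranked list placed the authors' threshold at 0.05. Strength follows from that choice, so strength and presence in each library's list are given as a description and carry no test.

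The cells were CFU-E, erythroid progenitor primary cells of adult male C57BL/6J mice aged 5 to 6 weeks. The assay was ATAC-seq: Tn5 transposase cuts accessible DNA and leaves sequencing adapters there. Both libraries were made from 50000 cells, and the labels number them biological replicates 1 and 2 of 1 donor identifier with separate biosamples. They form 1 group with no untreated or other reference sample, the labels list a pair of instrument models for replicate 1, and sequencing depth is unknown from the peak lists. In the 5 lists of red cell genes, 68 of 74 genes had a stronger region at the promoter. Among them were all 20 erythroid regulators, with Gata1 and Klf1. Of 145 listed genes of other lineages 20 had one, against 46.6% of all protein-coding genes. The lists were chosen with earlier results of these data known, so these counts are no independent check of the labelled cell type. The only comparison below is between weak and stronger regions of the same pooled list.

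A colony-forming unit-erythroid is a progenitor that depends on erythropoietin and divides into a small colony of red cells. GATA1, which binds GATA letters often together with TAL1 at a nearby CTG, and KLF1, which binds a CACCC box, open and activate many enhancers and promoters of these cells. CTCF holds open sites that anchor chromatin loops in most tissues. A weak peak can mark a site that is open in few cells or on few molecules, and peak heights alone do not tell these cases apart.

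Windows of 201 bp centred on the summit of 8 weak regions are shown, because the motif results below turn on such letters and because Gata2 and Zfpm1 held weak regions at erythroid enhancers that RefSeq curates. Letters are from the RefSeq GRCm38.p6 assembly (mm10), plus strand. Capitals mark GATA matches (AGATAA or else AGATAG, and likewise TGATAA or else TGATAG, on either strand) in the Gata2, Zfpm1, Cyp26c1 and Olfr761 windows. They mark the joined CTG and GATA letters in the Gm21188 window and a CTCF core match in the Tyw3 and Enpp6 windows. Cyp26c1 and Olfr761 were the nearest genes of the strongest distal weak regions by fold that held a GATA match, Gm21188 of the strongest with the CTG-GATA pair, and Tyw3 and Enpp6 of the strongest with a CTCF match, among regions whose sequence was considered for printing.
Gata2 region: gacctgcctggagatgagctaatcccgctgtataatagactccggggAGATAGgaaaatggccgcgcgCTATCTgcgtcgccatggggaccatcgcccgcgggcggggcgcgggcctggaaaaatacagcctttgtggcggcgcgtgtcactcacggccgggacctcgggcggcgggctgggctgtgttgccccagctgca
Zfpm1 R13: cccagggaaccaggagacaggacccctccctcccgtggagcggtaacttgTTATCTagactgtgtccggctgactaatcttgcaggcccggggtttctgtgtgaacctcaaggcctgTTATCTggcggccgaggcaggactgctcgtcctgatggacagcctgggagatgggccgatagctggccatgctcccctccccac
Zfpm1 R14: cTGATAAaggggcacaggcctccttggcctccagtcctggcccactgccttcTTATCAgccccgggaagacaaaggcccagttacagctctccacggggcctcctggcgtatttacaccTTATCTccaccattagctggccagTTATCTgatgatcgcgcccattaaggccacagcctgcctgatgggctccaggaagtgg
Cyp26c1 region: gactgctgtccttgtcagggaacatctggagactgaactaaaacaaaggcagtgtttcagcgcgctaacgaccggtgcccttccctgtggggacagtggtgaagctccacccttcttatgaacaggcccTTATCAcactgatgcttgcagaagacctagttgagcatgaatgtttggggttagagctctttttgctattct
Olfr761 region: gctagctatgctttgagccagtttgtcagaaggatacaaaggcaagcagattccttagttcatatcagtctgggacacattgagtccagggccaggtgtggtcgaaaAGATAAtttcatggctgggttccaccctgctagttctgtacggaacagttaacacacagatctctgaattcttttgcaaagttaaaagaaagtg
Gm21188 pair region: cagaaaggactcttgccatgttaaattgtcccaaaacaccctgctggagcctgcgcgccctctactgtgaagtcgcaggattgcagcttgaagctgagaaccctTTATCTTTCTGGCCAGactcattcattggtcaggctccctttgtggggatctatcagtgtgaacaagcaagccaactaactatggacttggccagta
Tyw3 CTCF region: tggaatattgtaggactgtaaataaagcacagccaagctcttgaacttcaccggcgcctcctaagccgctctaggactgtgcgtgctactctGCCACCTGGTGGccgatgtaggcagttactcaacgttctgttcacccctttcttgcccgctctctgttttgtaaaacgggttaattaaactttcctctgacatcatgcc
Enpp6 CTCF region: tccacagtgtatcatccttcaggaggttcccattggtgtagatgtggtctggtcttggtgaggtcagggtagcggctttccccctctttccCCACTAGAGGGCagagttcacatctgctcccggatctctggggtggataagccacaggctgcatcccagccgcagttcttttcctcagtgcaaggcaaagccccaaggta

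The Gata2 window lay at chr6:88189755-88189955, inside the weak region chr6:88189490-88190007, 4142 bp from the nearest Gata2 start. Its fold enrichment over the caller's background, the authors' own value per peak, was 3.61 in the pooled list and 4.09 in replicate 1's own list, and replicate 2's own list held no record there. The Zfpm1 R13 window lay at chr8:122313389-122313589 and the Zfpm1 R14 window at chr8:122322810-122323010, both in introns. Their regions had pooled folds of 2.35 and 1.79, and a record in an own list existed only for R13, in replicate 1, at 2.09. The intronic Cyp26c1 window (chr19:37654142-37654342) belonged to a region of fold 8.21, with 8.71 in replicate 1 and 4.88 in replicate 2. The intergenic Olfr761 window (chr17:37990495-37990695) belonged to a region of fold 7.85, with 8.11 in replicate 1 and 4.27 in replicate 2. Both of these regions were strong in replicate 1 and weaker in replicate 2. The intergenic Gm21188 window (chr13:120070112-120070312) came from a region of fold 6.29, with 6.31 in replicate 1 and 4.69 in replicate 2. The intergenic Tyw3 window (chr3:154572420-154572620) came from a region of fold 7.31 with a record of 7.63 in replicate 2 alone. The intergenic Enpp6 window (chr8:46935004-46935204) came from a region of fold 6.60, with 5.11 in replicate 1 and 6.41 in replicate 2. The CTCF match was 2 bp from the summit in the Tyw3 window and 4 bp in the Enpp6 window, whereas the nearest GATA match lay 10 bp from the summit at Olfr761 and 32 bp at Cyp26c1. No weak region was found nearest to Kit, the stem cell factor receptor of these cells, or at its promoter.

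Weak regions were narrow and low. They covered 5.01 Mb, or 22.8% of the bases in the replicated list, and the stronger regions covered 16.97 Mb. The median width was 267 bp for weak and 558 bp for stronger regions, and 81.8% of weak against 44.7% of stronger regions consisted of 1 record. Pooled fold enrichment in weak regions ran between 1.58 and 8.21 with a median of 3.21, against a median of 7.19 and a highest value of 45.5 in stronger regions. The median −log10 p was 7.12 in weak and 49.1 in stronger regions. In the ranked list of the 2 libraries, 72.0% of weak regions sat at the least reproducible IDR the list holds, 0.348, and 1537 weak regions (9.33%) had an IDR under 0.1.

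The most frequent pooled folds of weak regions fell on equal steps. The 12 most frequent pairs of fold and −log10 p were each shared by 244 to 739 weak regions, and their folds were spaced by 0.178, for example 2.85, 3.03 and 3.21. In all, 42.1% of weak regions, against 7.99% of stronger regions, lay within 0.002 of a whole multiple of that step. Both values were shared with another weak region by 71.9% of weak regions.

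Regions near the threshold had like strengths. The ranking of the 2 libraries alone does not separate the sets: 2049 stronger regions had an IDR there no smaller than the smallest of the weak regions, and they count as stronger through an overlap with a record of a thresholded list. The weak regions that just missed the threshold were nearest to Tsc22d3 (−log10 IDR 1.3009, fold 5.00), Akap13 (1.3007, fold 5.85) and Laptm5 (1.2998, fold 4.08). The stronger regions that just passed it were nearest to Ccdc182 (1.3011, fold 4.64), Wnt7b (1.3013, fold 4.35) and Samsn1 (1.3014, fold 4.38). Folds on the 2 sides of the threshold overlapped.

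Most weak regions were missing from the peak lists that the authors made from each library alone. Those lists are pseudoreplicated, that is, made by splitting 1 library's reads at random and keeping peaks that both parts gave. Of the weak regions, 9.10% (95% Wilson interval 8.67 to 9.55%) overlapped a record in both libraries' own lists, against 88.1% of the stronger regions. A further 17.1% were in replicate 1's list alone, 11.6% in replicate 2's list alone, and 62.3% in neither. The corresponding shares of stronger regions were 5.53%, 3.20% and 3.19%. All intervals here cover counting error over regions only, and regions of 1 pair of libraries are not replicates of a condition. Every weak region overlapped a record of the ranked list of the 2 libraries, and 66.2% overlapped the pseudoreplicated list of the pooled reads.

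**Figure D1:**
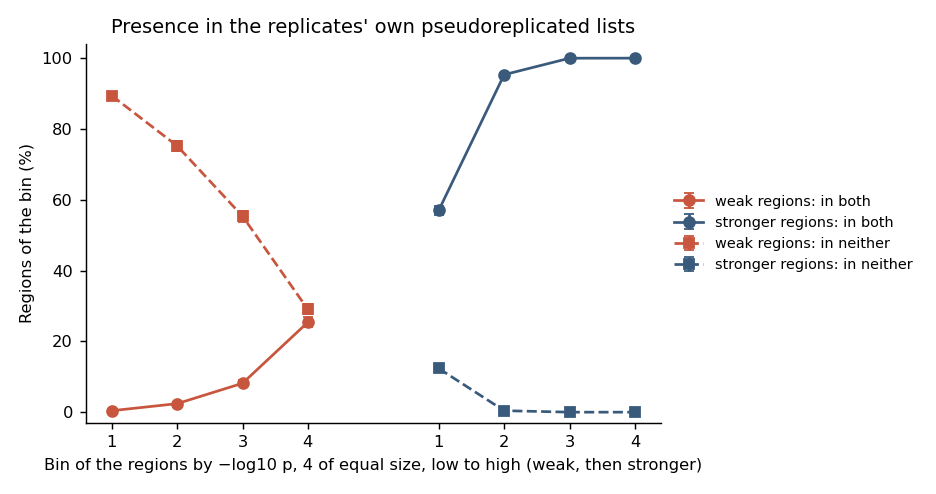
Share of regions (%) found in both libraries' own pseudoreplicated lists (circles) or in neither (squares), in 4 bins of equal size by −log10 p from low to high, for weak (red, left) and stronger (blue, right) regions; bars are 95% Wilson intervals. The share in both was 0.4% in the lowest and 25.4% in the highest weak bin, and 57.01% in the lowest stronger bin.

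Presence in both own lists was more frequent at higher −log10 p. Each set was divided into 4 bins of equal size by −log10 p. From the lowest to the highest weak bin the share was 0.4%, 2.4%, 8.2% and 25.4%, and in the lowest stronger bin it was 57.01%. Among the 1499 weak regions in both lists, the median fold was 3.88 in replicate 1 and 3.66 in replicate 2. Replicate 1 had the higher fold in 770 of them and replicate 2 in 729, with a median absolute log2 ratio of 0.29. The split between the libraries was near even. Weak regions in both lists had a median pooled fold of 4.16, against 3.64 in replicate 1's list alone, 3.59 in replicate 2's list alone and 3.03 in neither.

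The weak regions of highest fold had unlike folds in the libraries, which the choice of regions favours, since the threshold rests on the libraries' ranks. Of the 15 highest, 12 had a record in both own lists, and in those 12 the lower of the 2 folds was between 4.27 and 5.54. The higher fold was between 6.70 and 8.71 over all 15. At Atrn (chr2:130961873-130962270, intronic) it was 8.07 in replicate 1 and 5.20 in replicate 2, and at Radil (chr5:142557475-142557781, intergenic) 5.54 in replicate 1 and 8.19 in replicate 2. Either library could be the higher one.

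Only 131 weak regions (0.795%) overlapped a record that belonged to 1 library's own IDR-thresholded list, 90 in replicate 1, 41 in replicate 2 and 0 in both. A stronger region lay within 200 bp of 54.2% of these 131, against 8.55% of all weak regions. In 66 of the 6218 weak regions with an own record, the own fold was over 1.5 times the pooled fold, and 89.4% of the 66 had a stronger region within 200 bp. Rab11a, a vesicle traffic GTPase, shows the arrangement: the weak region chr9:64737282-64737516 had a pooled fold of 2.18, the overlapping record of replicate 2 had 11.95, and a stronger region began 45 bp away. At Smyd3, a lysine methyltransferase gene, the weak region chr1:179516923-179517369 had a pooled fold of 2.92, with 15.04 in replicate 1 and 3.44 in replicate 2, 46 bp from a stronger region. In 59 of the 66, the library's own record overlapped the stronger region as well as the weak one. These genes were named after their values were seen.

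By annotated position, weak regions were less often at promoters and more often in introns. The midpoint lay within 1 kb of an annotated start of any gene in 22.9% (22.2 to 23.5%) of weak and 48.8% (48.2 to 49.4%) of stronger regions. It lay in an exon in 6.82% of weak and 3.71% of stronger regions, in an intron in 41.7% and 27.4%, and between genes in 28.56% and 19.996%. The intervals of the 2 sets did not overlap for any of these classes. The median distance to a start was 6280 bp in weak and 1120 bp in stronger regions, and 6.82% of weak against 2.60% of stronger regions were over 100 kb from a protein-coding start.

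**Figure D2:**
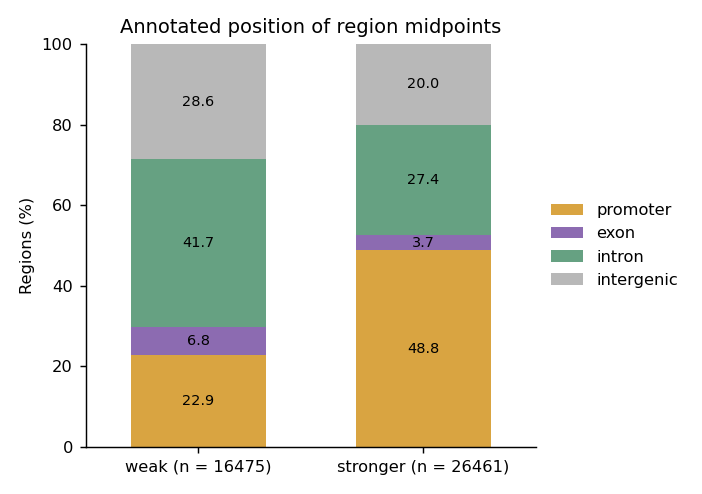
Share of region midpoints (%) at promoters (within 1 kb of a start), in exons, in introns and between genes, for weak regions (left bar, n = 16475) and stronger regions (right bar, n = 26461). Promoters made up 22.9% of weak and 48.8% of stronger regions.

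The weak promoter regions also differed in the kind of start. A protein-coding start lay within 1 kb of 79.8% (78.5 to 81.1%) of the 3768 weak and 91.5% (91.0 to 92.0%) of the 12925 stronger promoter regions. Starts of long noncoding RNAs made up 7.64% of weak and 4.25% of stronger promoter regions, pseudogenes 7.01% and 2.20%, and small RNAs 3.21% and 1.21%. CpG-rich sequence, common at housekeeping promoters, was rarer. A ratio of observed to expected CpG of at least 0.6 over the region, whose median width is smaller in the weak set, was found in 32.1% of weak and 67.8% of stronger promoter regions. Away from promoters the shares were 3.01% and 5.33%. Repeat-masked bases made up at least 50% of the region in 5.20% of weak and 3.18% of stronger regions.

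Weak regions stood farther from stronger ones than stronger regions did from each other. The median gap to the nearest stronger region was 15289 bp for weak and 5184 bp for stronger regions, and 13.2% of weak against 4.16% of stronger regions were over 100 kb from one. Another 2556 weak regions lay within 1 kb of a stronger region, and their makeup was different: 49.6% (47.7 to 51.5%) were at promoters, against 17.96% (17.33 to 18.61%) of the weak regions farther away. Their distal summits held a GATA match in 45.7% against 33.3%, and a CTCF match in 2.33% against 7.21%. Their median fold was 2.89, against 3.30 farther away. The cut at 1 kb is a choice along a range of gaps, and 39.2% of weak regions lay within 10 kb of a stronger region.

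Motif letters were searched on both strands in 201 bp round each summit and in windows of the same length centred 1 kb to each side that touched no region of the list. A GATA match stood at 34.6% (33.7 to 35.4%) of the 12707 distal weak summits, against 31.4% (30.8 to 32.0%) of their flanking windows. At the 13536 distal stronger summits it was 49.0% (48.2 to 49.9%), against 29.1% in their flanks. The GATA share was 3.2 points above the flank at weak summits and 19.9 points above it at stronger summits. The CTG-GATA pair, the joint word of TAL1 and GATA1, whose matches are also counted as GATA, was at 6.42% of weak summits against 2.17% of flanks, and at 15.2% of stronger summits against 1.98%. It was 2.95 times the flank share at weak and 7.64 times at stronger summits. KLF letters (CCACACCC, CCACGCCC, CCCCACCC or CCCCGCCC) were at 11.8% of weak summits against 6.34% of flanks, and at 18.4% of stronger summits against 6.96%.

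**Figure D3:**
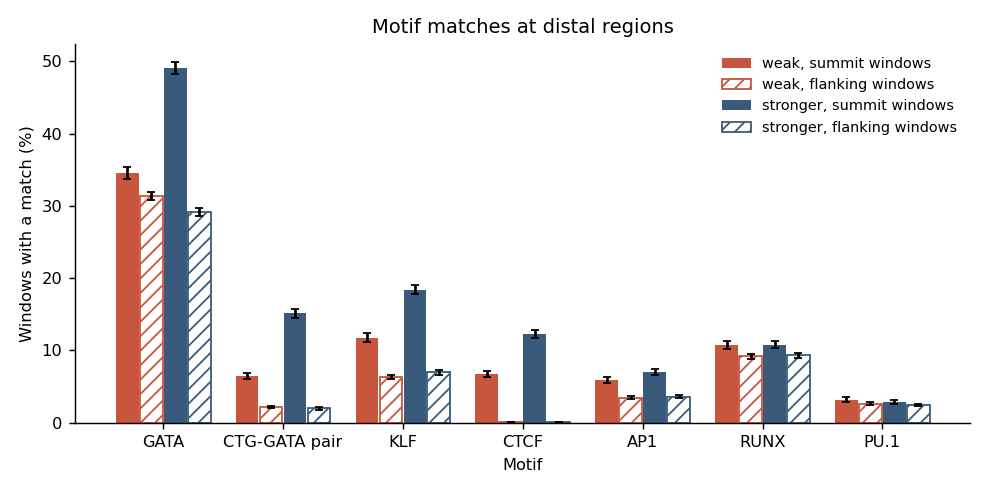
Share of distal windows (%) with a match to each motif at the summit (filled) and in flanking windows 1 kb away (hatched), for weak (red) and stronger (blue) regions; bars are 95% Wilson intervals. GATA stood at 34.6% of weak and 49.0% of stronger summits, and CTCF at 6.71% and 12.3%, with CTCF near 0.1% in both flanks.

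CTCF gave the clearest contrast with the flanks. A CTCF core match was at 6.71% (6.29 to 7.16%) of distal weak summits and 12.3% (11.7 to 12.8%) of stronger ones, against 0.0912% and 0.0992% of their flanks. Where a weak summit window held a CTCF match, its centre lay within 25 bp of the summit in 74.6% (71.5 to 77.4%) of 853 windows, and in stronger windows in 83.7% of 1662. GATA matches were within 25 bp in 39.1% (37.7 to 40.5%) of weak windows that held one, in 52.0% of stronger windows and in 30.3% of the flanking windows of weak regions. The pair was within 25 bp in 41.2% of weak and 53.8% of stronger windows, and KLF in 41.75% and 50.04%. Each of these 4 motifs was thus nearer to the summit in stronger than in weak regions, and in weak regions nearer than to the centre of flanking windows, with the CTCF flank resting on 22 windows only.

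At distal summits, the RUNX and PU.1 letters of other blood cell factors showed little or no difference between the 2 sets. AP1 and NFE2 letters were more frequent at stronger summits. RUNX letters (TGCGGTC or else TGCGGTT, and likewise TGTGGTC or else TGTGGTT) were at 10.8% of distal weak and 10.8% of stronger summits, against 9.21% and 9.32% of flanks. PU.1 letters (AAGGAAGT or GAGGAAGT) were at 3.21% (2.92 to 3.53%) of weak and 2.84% (2.58 to 3.14%) of stronger summits, with overlapping intervals. AP1 letters (TGACTCA or TGAGTCA) were at 5.96% (5.56 to 6.38%) of weak and 7.004% (6.59 to 7.45%) of stronger summits. NFE2 letters, a longer word that contains the AP1 letters, were at 1.43% (1.24 to 1.65%) of weak summits, against 0.228% of flanks. At stronger summits they were at 2.46% (2.21 to 2.73%), against 0.169% of flanks. At promoters, KLF letters were at 20.9% of weak and 39.1% of stronger summits, and GATA letters at 22.6% of weak and 17.0% of stronger summits, both below the 30.2% and 29.0% of their flanks. A match is a run of letters and not evidence of a bound factor.

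Motif shares differed across the strength range within the weak set. From the lowest to the highest of the 4 bins by −log10 p, the GATA share at distal weak summits was 27.4%, 29.7%, 39.6% and 42.7%, and the CTG-GATA pair share was 3.2%, 5.2%, 8.9% and 8.8%. The CTCF share was 1.0%, 3.5%, 9.0% and 14.2%. In the stronger regions, GATA was at 41.6%, 43.6%, 59.0% and 71.5%, and the pair at 9.2%, 10.9%, 21.9% and 35.5%. CTCF instead was 16.6%, 14.3%, 7.3% and 1.2% in the stronger bins. The CTCF share was thus highest in the lowest stronger bin, close to 14% in the bins on either side of it, and under 1.3% in the lowest weak and the highest stronger bin.

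Regions of like fold on both sides of the threshold differed in GATA and promoter shares at folds under 5. The CTCF share from a fold of 3 up was instead as high or higher in weak regions within counting error. These bands were set by fold only, and −log10 p and width were not matched in them, so strength was not held equal. At folds of 3 to 4, a distal GATA match was at 34.8% (33.6 to 36.1%) of weak and 48.4% (45.5 to 51.2%) of stronger summits. At folds of 4 to 5 it was at 38.8% (36.8 to 40.9%) of weak and 46.5% (44.5 to 48.6%) of stronger summits. KLF letters were at 12.1% of weak and 20.3% of stronger distal summits at folds of 3 to 4, and at 12.01% and 16.93% at folds of 4 to 5. CTCF was at 6.00% (5.41 to 6.65%) of weak and 6.28% (5.04 to 7.80%) of stronger summits at folds of 3 to 4, at 16.42% (14.92 to 18.04%) and 12.5% (11.2 to 13.9%) at folds of 4 to 5, and at 19.6% (16.2 to 23.4%) and 18.2% (16.7 to 19.7%) at folds of 5 to 6. At folds of 2 to 3 it was at 1.24% of weak and 4.50% of stronger summits. At folds of 4 to 5 CTCF was thus more frequent in weak regions, and in the bands on either side of it the intervals overlapped. Promoters made up 21.1% of weak and 43.1% of stronger regions at folds of 3 to 4. From a fold of 5 up, the GATA and KLF intervals of the 2 sets came close or overlapped, with 470 distal weak regions at folds of 5 to 6 and 79 at 6 to 9.

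**Figure D4:**
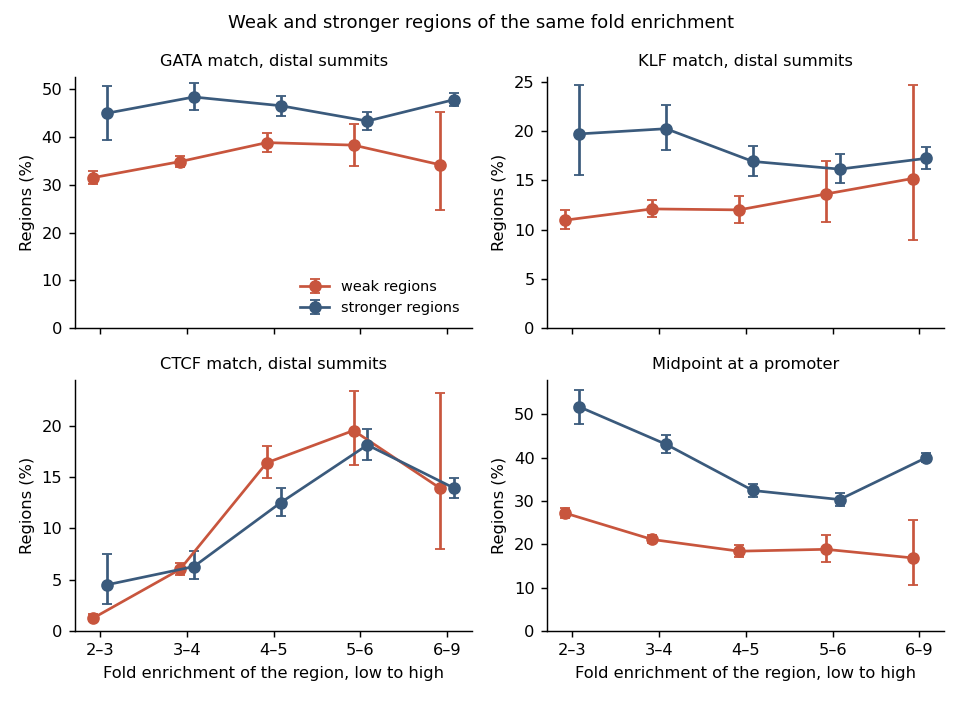
Share of regions (%) with a GATA, KLF or CTCF match at distal summits, and share of regions at promoters, in 5 bands of fold enrichment from low to high, for weak (red) and stronger (blue) regions; bars are 95% Wilson intervals. At folds of 3 to 4, GATA was at 34.8% of weak and 48.4% of stronger summits, while CTCF was at 6.00% and 6.28%.

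Presence in the own lists went with the same letters. The GATA share at distal weak summits was 43.1% where both own lists held the region, 40.7% for replicate 1 alone, 36.7% for replicate 2 alone and 31.5% for neither. The CTCF shares were 9.57%, 8.56%, 9.90% and 5.31%, and the promoter shares 29.6%, 26.9%, 23.7% and 20.6%. An older, larger replicated list, which the authors archived, overlapped 91.2% of weak and 98.8% of stronger regions, against 6.87% and 7.29% of their flanking windows. The older list is made from the same libraries, so this overlap is no independent replication. The flanking windows were 201 bp long and chosen to touch no region of the replicated list, so they are no neutral background.

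A weak region overlapped the sequence within 1 kb of a start of 1245 of 21911 protein-coding genes (5.68%) that had no stronger region there, and is called a weak promoter region alone. Another 1707 genes (7.79%) had both kinds within 1 kb of a start, 10208 (46.6%) had a stronger region with or without a weak one, and 10458 had neither. At the 1245 promoters the strongest weak region had a median fold of 3.39 (quartiles 2.85 and 4.04, highest 8.21). It was in both own lists at 14.4% and in neither at 53.3% of them. A CpG ratio of at least 0.6 was found at 41.4%, KLF letters at 30.1% and GATA letters at 16.0%.

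Of the 10 genes whose weak promoter region had the highest fold, Eml5, a microtubule-associated protein, came first with 8.21 at chr12:98901076-98901649, with 8.45 in replicate 1 and 4.88 in replicate 2. Tjp1, the tight junction scaffold ZO-1, had 6.97 pooled, 7.89 in replicate 1 and 5.08 in replicate 2. Prdm11, a member of a transcription regulator family, had 6.64 pooled, 7.29 in replicate 1 and 4.67 in replicate 2. Tanc2, a synaptic scaffold, had 6.38 pooled, 6.81 in replicate 1 and 4.50 in replicate 2. All 4 were higher in replicate 1, and their CpG ratios were between 0.87 and 0.99. Lrrc1 (6.80), Cpq, a carboxypeptidase (6.60), and the zinc finger gene Zfp85 (6.24) had an own record in replicate 1 alone. Gata3, the T cell and mast cell regulator, had 6.24 pooled and 4.05 in replicate 1, with no record of its own in replicate 2. Sept10, a septin, and Sowahc shared 1 region, chr10:59221430-59222129, with 6.23 pooled, 5.74 in replicate 1 and 5.49 in replicate 2.

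Among 19 gene lists, 16 of 320 distinct genes (5.00%) had a weak promoter region alone, close to the 5.68% of all protein-coding genes. In the 5 lists of red cell genes it was 2 of 74, Hbb-bh2 and Cd36, since 68 of the 74 had a stronger promoter region. All 20 erythroid transcription regulators, all 13 haem genes and all 11 iron genes had a stronger promoter region. In 9 lists of other lineages, 4 of 145 genes had a weak promoter region alone (Gata3, Prss34, Cd3d and Grin1) and 121 had neither kind, and the background over all genes is 5.68%. The lists with most such promoters were erythropoietin signalling, with 4 of 16, and stem and early progenitor genes, with 4 of 22. These small counts carry no test.

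**Figure D5:**
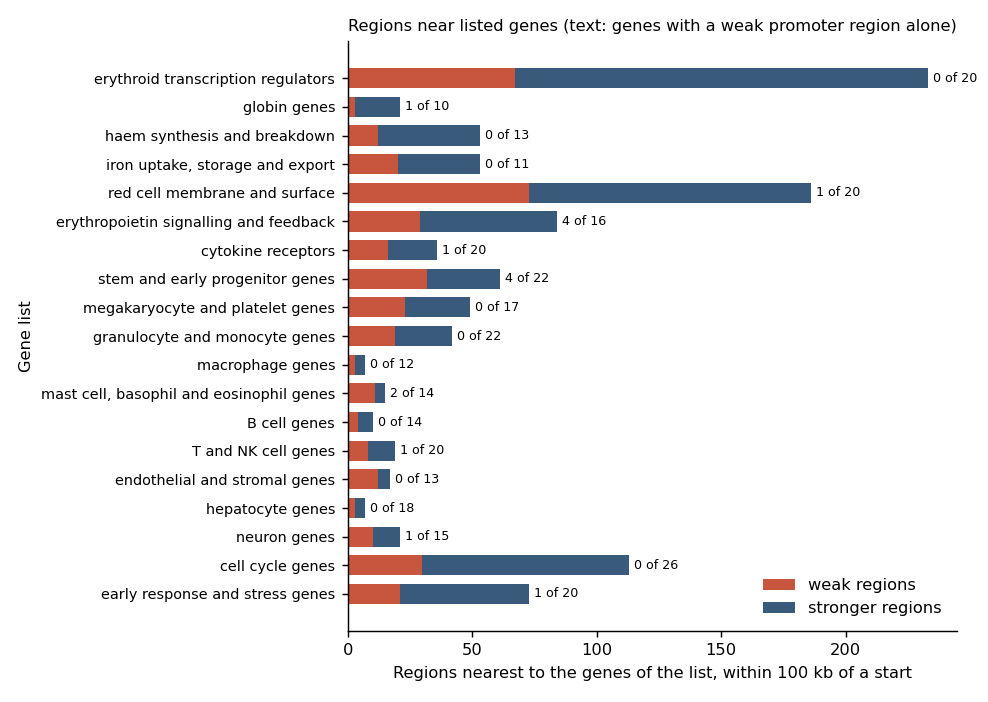
Number of weak (red) and stronger (blue) regions nearest to the genes of each list within 100 kb of a start; the text at each bar gives how many genes of the list had a weak promoter region and no stronger one. Erythropoietin signalling (4 of 16) and stem and early progenitor genes (4 of 22) had the most, and the erythroid regulators 0 of 20.

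The 4 erythropoietin signalling genes were Id1, Gab1, Lyn and Socs2. Id1, an inhibitor of basic helix-loop-helix factors, had a promoter region of fold 4.70 at chr2:152736058-152736318 with a record of 4.41 in replicate 1 only. Gab1, an adaptor downstream of receptors, had 3.74 at chr8:80880494-80880718 and was in neither own list. Lyn, a Src family kinase, had 3.32 at chr4:3678822-3679165, with 3.74 in replicate 1 and 3.85 in replicate 2. Socs2, a feedback inhibitor of cytokine signalling, had 3.19 at chr10:95416974-95417216 and was in neither own list. Only Lyn had a record in both own lists, with similar folds, and the folds of the others cannot be compared between libraries. The receptor gene itself, Epor, had a stronger promoter region and a weak one of fold 2.31 beside it.

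Of the stem and early progenitor genes, Gata2, Cd34, Lmo4 and Angpt1 had weak promoter regions alone. Gata2, the factor that GATA1 replaces as erythroid cells mature, had 3 weak regions and 0 stronger ones nearest to it. Its promoter region at chr6:88198475-88198756 had a fold of 4.15, with 3.48 in replicate 1 and 3.796 in replicate 2, and held no GATA match. The enhancer region shown above lay within 1 kb of a start of Gm38708, so it counted as a promoter region by position. The third, at chr6:88155667-88155852, had 2.98 and was in neither own list. Cd34, a progenitor surface protein, had 3.66 at chr1:194938721-194939222, Angpt1, the ligand of the TIE2 receptor, had 3.71 at chr15:42676675-42676990, and Lmo4, a LIM adaptor, had 3.04 at chr3:144204991-144205493. None of these 3 promoter regions was in an own list. Tek, which encodes TIE2, had no stronger region, and its intronic weak region chr4:94803090-94803557 of fold 4.28 held a CTG-GATA pair and had 3.91 in replicate 1 alone.

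The other listed genes with weak promoters alone were spread over other lists. Cd36, a fatty acid receptor of early erythroid cells, had 6.14 at chr5:17850659-17851052, with 5.95 in replicate 1 and 4.28 in replicate 2. The midpoint of this region was intronic, 1064 bp from a start. The domain of Cd36 held 6 further weak regions and 5 stronger ones. Hbb-bh2, a beta-like globin gene, had a region of 4.47 at chr7:103840392-103840673, with 3.74 in replicate 1 and 4.07 in replicate 2, and a second of 3.21 with a CTG-GATA pair. Il3ra, the interleukin-3 receptor subunit, had 5.17 at chr14:14345504-14345910, with 4.21 in replicate 1 and 5.19 in replicate 2. Klf2, a shear stress and immune cell factor, had a region at chr8:72318653-72319433 with 5.49 in replicate 1 and 4.41 in replicate 2. Prss34, a mast cell protease, had 2.51, with 2.63 in replicate 1 alone and a CTG-GATA pair. Cd3d, a T cell receptor subunit, had 3.21, and Grin1, a glutamate receptor subunit, had 2.18, both in neither own list. Cd36, Hbb-bh2, Il3ra and Klf2 were the members of this group with records in both libraries.

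Counting promoters and distal regions together, weak regions were fewer than stronger ones at red cell genes. In the domains of the red cell lists, 175 of 546 regions were weak (32.1%, interval 28.3 to 36.1%), against 93 of 187 (49.7%, 42.6 to 56.8%) in the lists of other lineages and 37.3% for all protein-coding genes. A domain is the sequence nearest to a gene's starts, up to 100 kb. A GATA match was at the summit of 44.6% (37.4 to 52.0%) of the 175 weak regions at red cell genes, against 33.3% (24.6 to 43.4%) of the 93 and 31.6% of all weak regions in domains. By list, the weak share was lowest at the globin genes, with 14.3% of regions (3 weak and 18 stronger). It was highest at mast cell, basophil and eosinophil genes, with 73.3% (11 weak and 4 stronger). Endothelial and stromal genes were close to that, with 70.6% (12 weak and 5 stronger), and these counts are small.

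The erythroid regulators had 67 weak and 166 stronger regions, a weak share of 28.8%, below the 37.3% of all protein-coding genes. The genes below were named after their values were seen. Zfpm1, which encodes the GATA1 partner FOG1, had 8 weak and 19 stronger regions, the weak ones with folds between 1.77 and 2.75. Those at chr8:122341663-122342226 (2.77 in replicate 1, 2.44 in replicate 2) and chr8:122342860-122343541 (2.89 in replicate 1, 1.71 in replicate 2) were in both own lists. Lmo2, the bridge of the GATA1 and TAL1 complex, had 5 weak and 13 stronger regions, and the exonic weak one at chr2:103915996-103916538 had a fold of 4.80, a CTG-GATA pair, 5.04 in replicate 1 and 3.51 in replicate 2. Sox6, a repressor of embryonic globins, had 13 weak and 19 stronger regions, and of the weak ones 12 were distal and 7 held a GATA match. Its strongest, at chr7:115558820-115559118, had 4.14, with 3.87 in replicate 1 alone. Bcl11a, a globin switching factor, had 5 weak regions between 2.45 and 3.25 and 12 stronger ones, and Ikzf1 had 5 weak regions between 2.29 and 3.68 and 5 stronger ones. Gata1 and Klf1 had no weak region in their domains.

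Weak regions were also present inside membrane and surface genes. Cd47, the self-recognition signal of red cells, had 13 weak and 16 stronger regions, with weak folds between 1.79 and 4.35. Rhag, the ammonium channel of the Rh complex, had 7 weak regions, the strongest at chr17:40817699-40817881 with 4.69 and a GATA match in neither own list. Epb41, the 4.1 protein of the membrane skeleton, had 6 weak and 11 stronger regions. Its strongest weak region, chr4:132040301-132040824, had 4.94, with 3.95 in replicate 1 and 5.17 in replicate 2, and a CTG-GATA pair. The other weak regions of Epb41 were in neither own list. Among haem genes, Alas2, the erythroid first enzyme, had 2 exonic weak regions of 3.73 and 2.16, both in neither own list.

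Over all protein-coding genes, Cdyl, a chromatin co-repressor, held the most weak regions, 17 beside 12 stronger ones, and 13 of the 17 were in neither own list. Fry had 15 weak and 4 stronger regions, Pde4d, a phosphodiesterase, 15 and 18, and Rabgap1l 14 and 9. Cd47, Rreb1, Sfi1 and Sox6 had 13 each, and Macf1, Mbnl1, Shank2, St7, Tgfbr3 and Tnrc6b 12 each. These 14 genes are 61.6 to 1504 kb long. Shank2, a postsynaptic scaffold, had no stronger region at all, and 10 of its 12 weak regions were in neither own list. Tgfbr3, a TGF-beta co-receptor, had 12 weak and 3 stronger regions with weak folds up to 4.74. Sfi1 stood apart with a median weak fold of 1.95, against 2.85 or more in the others.

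Enhancers that RefSeq curates from published experiments, on the same build, overlapped 49 weak regions (0.297%), against 111 stronger regions (0.420%). These shares are per region and not corrected for width, whose median was 267 bp in weak and 558 bp in stronger regions. Of 1015 such features, 35 (3.45%) held a weak region and no stronger one, and 112 (11.0%) held a stronger one. Of the 52 features with a weak region, 36 were VISTA enhancers, recorded in embryonic tissues such as brain, heart and limb, and 4 were recorded as erythroid enhancers. VISTA enhancers made up 69.2% of these 52, against 62.5% of the 112 features with a stronger region and 61.1% of all 1015 features. Erythroid ones made up 7.69% (3.03 to 18.2%) of the 52, against 8.04% of the 112 and 2.96% (2.08 to 4.19%) of all 1015. The elements below were picked out for their blood cell genes, whatever the cells they were recorded in. At Zfpm1, 3 fragments recorded as enhancers in erythroid cell lines held weak regions alone, R2 with a fold of 1.77, R13 with 2.35 and R14 with 1.79. The Gata2R8 fragment, of the same kind of record, held the Gata2 region shown above. Gfi1, a repressor in blood stem and myeloid cells, had weak regions at a pair of curated elements. The element recorded in Merkel cells held chr5:107687945-107688169, with 4.10 pooled and 3.05 in replicate 2 alone. The element recorded in aorta and fetal liver held chr5:107759261-107759485, with 3.57 pooled and 3.30 in replicate 1 alone. The HS1 element of the beta-globin locus held both a stronger region and a weak one, chr7:103859727-103860016, with 2.76 pooled, 2.53 in replicate 1 and 2.86 in replicate 2.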

How the data were processed

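The deposited lists are narrowPeak tables on mm10, read in that format's column order since they have no header. Aligner and peak caller: not given in the sources used here. From the authors, each record carries a score (a scaled IDR in the IDR lists), a fold enrichment over local background, a −log10 p and q, and a −log10 IDR in the ranked lists. Per the deposited file listing, the lists derive from the libraries' alignments and a further undescribed file. The archived older list derives from other files. In the ranked lists, 8 columns of values of unnamed inputs were not used.

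Overlapping or touching records of the replicated list were merged, keeping the highest fold and −log10 p. Overlaps needed 1 bp. Starts came from GENCODE M21, sequence and enhancers from RefSeq GRCm38.p6. Motifs were matched in both strands with Python 3.11.15, pandas 2.3.3 and numpy 2.4.6, tested on simulated data. Shares carry Wilson intervals.

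Named by rule were list members with a weak promoter region alone, the 10 such promoters of highest fold and the 10 genes with most weak regions, with ties. The members and lists were chosen with earlier results of these data known. Alternatives changed lists, merging, thresholds and windows, or left out a library.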

Additional observations from a re-analysis of the deposited data

How the results depend on the processing

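Across 43 alternative values, 25 stayed close to the reported one and 18 moved, and no test was involved. Close means within 1.5 times for a count and inside the reported value's 95% Wilson interval for a share. Starting from the archived older list gave 156465 weak regions, of which 14.4% were at promoters and 0.9497% in both own lists. Its distal summits held GATA in 30.0%, and 4855 genes had weak promoter regions alone. Merging records up to 200 bp apart gave 19.3% at promoters. A −log10 q of at least 2 gave 23.7% at promoters, 10.4% in both own lists and 35.9% of distal summits with GATA. Promoter windows of 500 bp and 2 kb gave 15.2% and 30.5% at promoters. With the IDR-thresholded list alone excluding regions, 13.3% were in both own lists, and with an overlap of at least 50% it was 7.78%. A motif window of 50 bp to each side gave GATA in 22.0%. Selecting from 1 library's own lists, without replicate 1 or without replicate 2, gave 28.7 to 30.2% at promoters and 39.5 to 40.2% with GATA. No paired analysis was possible because the series holds 1 group. Depth is unknown, so a region missing from an own list may lie under that list's threshold.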

Other observations

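The share of regions that were weak differed between chromosomes. It was 44.9% on chromosome 1 and 44.8% on chromosome 13, and 28.2% on chromosome X, where 253 of 898 regions were weak. Among distal weak regions, GATA letters stood at 24.2% of summits where at least 50% of the region was repeat-masked, against 36.0% where 10 to 50% and 34.7% where under 10% was masked. CTCF letters stood at 3.31%, against 7.33% and 6.67%. At transfer RNA genes, 32 of 403 held a weak region and no stronger one, and 155 held a stronger one. At Cbfa2t3, a co-repressor of the TAL1 complex, the intronic weak region chr8:122721390-122721608 had a pooled fold of 2.59, with 5.30 in replicate 1 and no record in replicate 2's own list. It is thus 1 of the 66 weak regions whose own fold was over 1.5 times the pooled fold. In 59 of those, the own record also overlapped a stronger region, and whether it did at Cbfa2t3 was not examined.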
